A study of Mus musculus with 21 samples.

Results

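The spleen cells compared here were CD45+ and CD45- erythroid cells of neonatal mice. Of the 21 libraries in the series, the 6 whose labels name neonatal mice were taken. In 3 of them the cells were CD45+Ter119+CD71+, and in the other 3 they were CD45-Ter119+CD71+. The comparison covered every gene of the deposited table, 14273 in all, of which 11195 passed a filter on low values (at least 1 in at least 3 of the 18 Ter119+CD71+ libraries) and were tested. The series also holds both fractions from tumor-bearing mice and from mice with anemia, with 3 libraries per group, and these 12 libraries entered the same fit. All mice were C57BL/6, without a named transgene or deletion in any group. The labels give no age for any mouse, no tumor line and no cause of the anemia, and do not say whether animals were pooled or whether the 3 libraries of a group are separate animals or sorts. A p-value here thus rests on how far the 3 libraries of a group lie apart, pooled over all groups of the fit, and that distance may be technical. The standard error of a neonatal fold change therefore also carries the spread among the tumor and anemia libraries. The tissue label is spleen throughout, although the extraction protocol mentions retinas.

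Ter119 is a surface antigen of cells committed to the red lineage, and CD71 is the transferrin receptor, through which erythroid precursors take up the iron for haemoglobin. CD45, a tyrosine phosphatase encoded by Ptprc, covers leukocytes and early progenitors and is lost as erythroblasts mature. The spleen of a newborn mouse makes red cells and myeloid cells at the same time, taking over blood formation from the fetal liver before the marrow does so. Mature erythroblasts fill with haemoglobin, build a spectrin skeleton under the membrane and then shed the nucleus and organelles. Granulocytes pack proteases and antimicrobial proteins into granules in a fixed order, the primary granules first.

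A level here is 2 raised to the deposited log2 value, on a scale not given in the sources used here, so levels of different genes are not compared and read depth is unknown. They summed to 254547, 265984 and 256829 in the CD45+ libraries and to 341106, 340388 and 272437 in the CD45- libraries. The third library of each fraction stood apart from the other two: the correlation of log2(level + 1) across genes was 0.947 between CD45+ replicates 1 and 2 against 0.909 and 0.898 for the pairs with replicate 3, and 0.965 against 0.934 and 0.923 in the CD45- fraction. A blank cell of the table was taken as 0, and such a value is called listed at 0, since a blank can also be a failed estimate.

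The fractions differed in most of the transcriptome. Of the 11195 genes tested, 6710 (59.9%) passed an adjusted p below 0.05 in limma, and 5554 (49.6%) were higher and 1156 (10.3%) lower in CD45+ cells. Of all genes tested, 4409 (39.4%) passed as at least 2-fold higher on the log2(level + 1) scale and 851 (7.6%) as at least 2-fold lower. The libraries of the fractions did not overlap for 7597 genes (67.9%), 6255 (55.9%) that were higher and 1342 (12%) that were lower. Without replicate 3 of every group, 5827 genes passed the adjusted p threshold as higher and 1274 as lower, in place of 5554 and 1156. The median log2 fold change of all tested genes was 0.75. Under median-ratio scaling of the libraries this median was 0.06 and the split became 3303 higher (30%) and 2692 lower (24.5%), and under quantile normalization it was -0.02 with 2663 higher (23.8%) and 2808 lower (25.1%), so list medians are also given relative to 0.75. A count of list members that rose or fell stands against these shares of all genes, 49.6% and 10.3% in the unscaled data. Fold changes are on the log2(level + 1) scale, which understates the change of genes at low levels. In sorted bulk RNA, fewer cells of a type and less RNA per cell cannot be told apart.

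**Figure D1:**
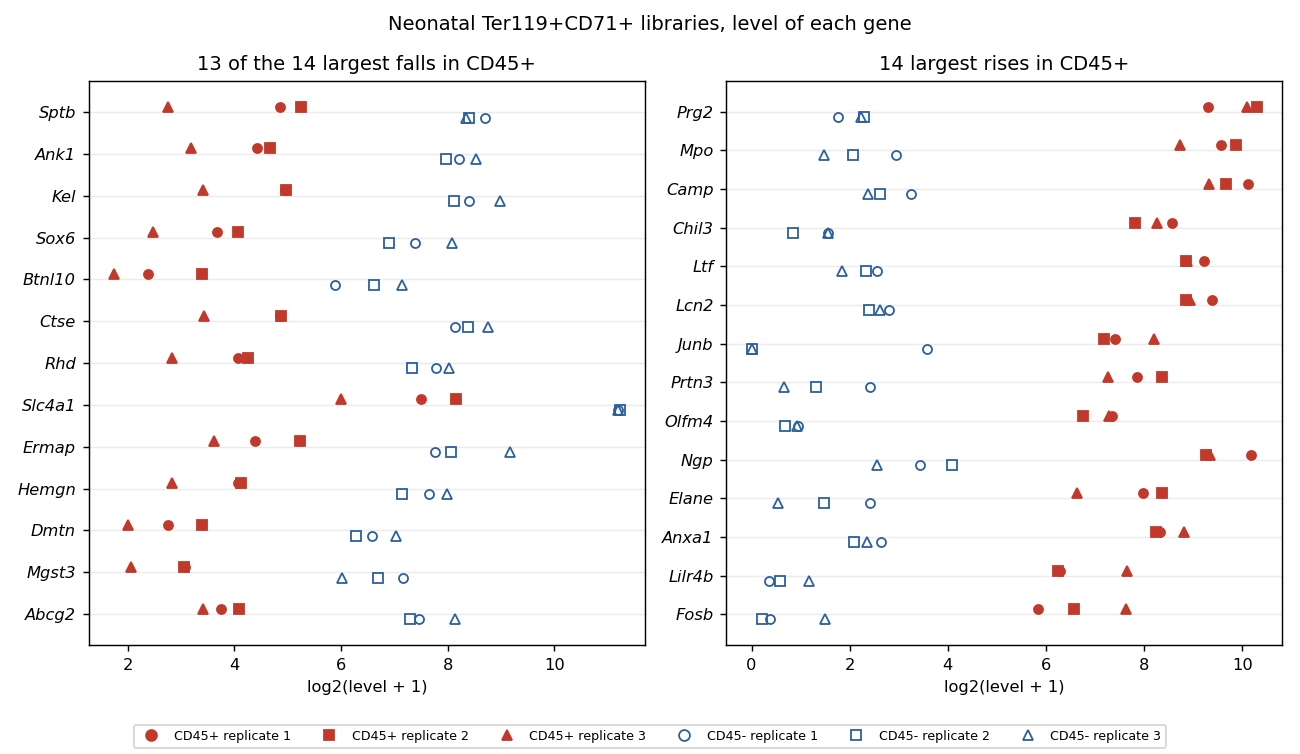
Level of 13 of the 14 genes with the largest falls (left) and the 14 with the largest rises (right) in CD45+ cells among genes past the threshold, with each of the 6 neonatal libraries as a point. The axis is log2(level + 1), filled red marks are CD45+ and open blue marks CD45- libraries, and the shape gives the replicate. In every gene shown the fractions do not overlap, and Junb is listed at 0 in 2 of the 3 CD45- libraries.

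Genes of the red cell program fell in the CD45+ fraction. Among the 14 largest falls were Sptb, Ank1, Kel, Sox6, Btnl10, Ctse, Rhd, Slc4a1, Ermap, Hemgn, Dmtn, Mgst3 and Abcg2, and 12 of the 14 belong to the red cell membrane, erythroid transcription factor, late maturation or iron lists. The anion exchanger Slc4a1 (band 3), the most abundant membrane protein of red cells, stood at 179, 284 and 62.8 in the CD45+ libraries and at 2349.9, 2389.8 and 2354 in the CD45- libraries. The CD45- values hardly varied, whereas the CD45+ values spread widely, with replicate 3 lowest. Slc4a1 fell by 3.99 ± 0.82 (SE) on the log2 scale (limma adjusted p = 4.8e-04). The 4 erythroid markers Gata1, Klf1, Alas2 and Slc4a1 summed to 188 to 494 in the CD45+ libraries and to 3519 to 4361 in the CD45- libraries, and none of them was listed at 0 in any of the 6.

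The 4 adult globins of the table fell in CD45+ cells. Hba-a1, an alpha globin, was 6650.0, 9828 and 2028 in CD45+ libraries and 48225, 49147 and 26022 in CD45- libraries, a fall of 2.95 ± 0.88 (adjusted p = 0.0083). Hbb-bs, a beta globin, was 3390.2, 5068 and 1755 against 25276, 27281 and 22099 and fell by 2.99 ± 0.69 (adjusted p = 0.0013). The fractions did not overlap for any of the 4, and the call of Hba-a1 did not hold without CD45+ replicate 3 (adjusted p = 0.054). Hba-a2 fell by 2.96 and Hbb-bt by 3.46. These copies are nearly identical in sequence, so how reads were shared between them is uncertain. Under quantile normalization the median of the 4 was -0.87 in place of -2.98 and 1 of the 4 stayed past the threshold. Embryonic globin was near nothing in both fractions: Hbb-y, the epsilon-type chain, was 0.427, 0.301 and 0.143 in CD45+ and 0.942, 0.796 and 0.413 in CD45- libraries, with fractions that overlapped and a difference that did not pass (adjusted p = 0.15). Hba-x reached at most 2.01 and Hbb-bh1 at most 0.625, and both were under the filter. The theta globins Hbq1a and Hbq1b fell by 2.85 and 3.33, and they too are a near-identical pair.

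Haem synthesis fell nearly throughout. Of the 13 genes tested, 12 fell against the 10.3% of all genes, and the median was -3.17, or -3.92 relative to all genes. Alas2, the rate-limiting erythroid enzyme of the pathway, was 182, 201 and 121 in CD45+ and 1286, 1074 and 1921 in CD45- libraries and fell by 3.07 ± 0.54 (adjusted p = 1.2e-04). Alad, the next enzyme, was 14.97, 18.7 and 7.12 against 192, 148 and 164 and fell by 3.62 ± 0.50. In both genes every CD45- library stood far above every CD45+ library. Abcb6, a porphyrin transporter, fell by 3.10, and the enzymes Uros and Urod fell by 3.64 and 3.53. Slc25a38, a mitochondrial carrier that supplies glycine, fell by 2.71.

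Iron genes divided. Of the 13 tested, 7 fell and 4 rose, against 10.3% and 49.6% of all genes, and under median-ratio scaling 8 fell and 1 rose. Tfrc fell by 3.13 ± 0.47 although CD71 was a gate of both fractions: it was 40.6, 66.1 and 65.2 in CD45+ and 368, 326 and 1029 in CD45- libraries, without overlap. Abcg2, a haem and porphyrin exporter, fell by 3.88, Slc11a2, the divalent metal transporter, by 1.35, and Fam132b, which encodes the erythroid hormone erythroferrone, by 2.29. Of the genes that rose, Hmox1 and Slc40a1 serve the recycling of iron from old red cells. Hmox1, which breaks down haem, was 279, 236 and 635 against 37.2, 28.2 and 36.96 and rose by 3.32 ± 0.59 (adjusted p = 1.5e-04). Slc40a1, the iron exporter ferroportin, was 128, 113 and 258 against 45.4, 41.3 and 50.7 and rose by 1.74 ± 0.38 (adjusted p = 9.2e-04), a call that did not hold under median-ratio scaling (adjusted p = 0.055).

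Genes of the red cell membrane and its blood group antigens fell in 21 of 23 tested, with a median of -3.44. The spectrin chain Sptb and the adaptor ankyrin (Ank1), which ties the skeleton to band 3, fell by 4.19 and 4.14. Sptb was 27.9, 37.3 and 5.79 in CD45+ and 412, 338 and 323 in CD45- libraries, so that replicate 3 of the CD45+ fraction was again lowest. The Rh complex genes Rhag and Rhd fell by 3.84 and 4.0, the Kell antigen gene Kel by 4.05, and the adducin Add2 and the adhesion molecule Icam4 by 3.73 and 3.43. The exceptions were Aqp1, a water channel, with 20.98, 36.01 and 12.5 against 62.5, 50.1 and 55.7, and the glucose transporter Slc2a1, with 11.1, 7.22 and 6.12 against 14.7, 19.6 and 5.43. Neither passed. Slc2a1 was lower without CD45- replicate 3 (adjusted p = 0.0097) and under median-ratio and quantile scaling (adjusted p = 0.0066 and 0.0069). The fractions did not overlap for Aqp1, which was lower at a pseudocount of 10, under median-ratio scaling and in a fit of the neonatal libraries alone (adjusted p = 0.047, 0.019 and 0.01). Under median-ratio scaling all 23 of 23 fell.

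Of 19 erythroid transcription factors, 15 fell and 1 rose. Klf1, the activator of the adult beta globin gene, was 1.56, 3.24 and 2.41 in CD45+ and 29.7, 29.1 and 42.5 in CD45- libraries and fell by 3.36 ± 0.38 (adjusted p = 1.3e-06). Gfi1b, a repressor needed for erythroid maturation, fell by 3.23, Hemgn by 3.91 and the cell cycle repressor E2f4 by 2.03. The one that rose was Myb, which keeps progenitors dividing and is switched off in maturation: it was 27.6, 23.2 and 40.6 against 1.60, 1.96 and 8.39 and rose by 2.88 ± 0.46 (adjusted p = 4.8e-05). Among genes of organelle clearance and late maturation 19 of 21 fell, with Bnip3l, a receptor for mitochondrial removal, at 56.4, 52.5 and 41.2 against 281, 247 and 356 and a fall of 2.53 ± 0.31. Tspan8, Rnf11 and Btnl10 fell by 3.84, 1.80 and 4.04. Alox15, a lipoxygenase listed there for its part in reticulocytes and also made by eosinophils, rose instead, from 0.223, 0.0760 and 0.278 in CD45- to 18.8, 14.4 and 21.3 in CD45+ libraries (3.99 ± 0.26, adjusted p = 2.7e-09).

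Promoters of some of these genes carry the letters AGATAA, the core of sites that GATA factors are known to bind. They were searched on both strands (TTATCT is the same site on the other) in the 250 bases before the start of each gene in the RefSeq promoter windows of build GRCm38.p6. The letters were in 2771 of 27025 gene windows (10.3%). They were in 5 of 17 red cell membrane genes with a window (29.4%), in 2 of 16 erythroid transcription factors (12.5%) and in 1 of 10 haem synthesis genes (10%). Examples from the lists that fell are given as the 100 bases before the start, on the strand of the gene, with the matched letters in capitals. Alas2 lies at chrX:150547317-150547416 on the plus strand, with the match beginning 86 bases before the start. Kel lies at chr6:41704326-41704425 on the minus strand, with the match at 56 bases, and Rhd at chr4:134864436-134864535 on the plus strand, with the match at 43 bases. A match describes the letters only, and no binding was measured.
Alas2: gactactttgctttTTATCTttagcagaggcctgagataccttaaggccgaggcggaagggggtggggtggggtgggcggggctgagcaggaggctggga
Kel: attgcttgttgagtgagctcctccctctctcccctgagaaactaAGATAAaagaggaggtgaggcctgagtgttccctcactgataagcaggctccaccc
Rhd: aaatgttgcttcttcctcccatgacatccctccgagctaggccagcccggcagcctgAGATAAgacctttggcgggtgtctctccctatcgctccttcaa

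Of 16 genes of erythropoietin signalling and its feedback 8 rose and 3 fell, close to the 49.6% and 10.3% of all genes. The receptor Epor was 6.72, 8.45 and 5.16 in CD45+ and 48.8, 64.7 and 54.2 in CD45- libraries and fell by 2.88 ± 0.52 (adjusted p = 1.4e-04), and its survival target Bcl2l1 fell by 2.40. The members that rose are also general leukocyte signalling genes: the phosphatases Inpp5d and Ptpn6 rose by 3.50 and 4.19, the Src kinase Lyn by 4.2 and the kinase Pim3 by 2.48. The feedback gene Cish, with 1.37, 1.77 and 0.773 against 4.15, 0.967 and 1.89, did not pass.

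The CD45 gate separated its own transcript: Ptprc was 101, 86.7 and 188 in CD45+ and 1.88, 1.72 and 3.22 in CD45- libraries. The myeloid integrin Itgam (CD11b) was 106, 66.6 and 54.1 against 0.314, 0.145 and 0.569 and rose by 5.79 ± 0.42 (adjusted p = 9.0e-09). Ly6g, the granulocyte antigen that the Gr1 antibody recognizes, was 2.51, 3.77 and 3.77 against 0.229, 0.183 and 0 and rose by 1.93 ± 0.61 (adjusted p = 0.011), which did not hold under quantile normalization (adjusted p = 0.18). Ly6c2, the monocyte antigen, rose by 5.53 from under 0.5 in every CD45- library to between 47.4 and 59.4.

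Genes of early blood progenitors rose in 18 of 22 tested of 27 listed, with a median of 1.99. Cd34, the stem and progenitor antigen, was 15.6, 15.9 and 11.1 in CD45+ and 0.688, 0.667 and 0.202 in CD45- libraries and rose by 3.32 ± 0.21 (adjusted p = 2.5e-09). Spi1, the PU.1 factor that drives myeloid fate and opposes Gata1, was 101, 89.4 and 59.8 against 2.74, 2.67 and 3.26 and rose by 4.41 ± 0.33. Both genes were many times higher in every CD45+ library than in any CD45- library. The cytokine receptor chains Il3ra and Csf2rb rose by 2.60 and 3.53. Lmo2, a partner of Gata1 and Tal1 in both progenitors and erythroblasts, was the exception, at 16.97, 15.3 and 11.3 against 50.2, 48.9 and 89.3, a fall of 2.00 ± 0.40 (adjusted p = 4.1e-04).

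Genes of neutrophil granule proteins rose throughout both lists that hold them. All 10 of 10 primary granule genes rose, with a median of 5.28, beside 49.6% of all genes tested. Mpo, the myeloperoxidase, was 761, 933 and 421 in CD45+ and 6.69, 3.22 and 1.80 in CD45- libraries and rose by 7.22 ± 0.64 (adjusted p = 7.7e-08). The serine proteases Elane, Prtn3 and Ctsg rose by 6.18, 6.37 and 5.75. Elane was 249.8, 329.9 and 98.7 against 4.32, 1.80 and 0.447, with replicate 3 lowest in both fractions, as it was for Mpo. Of the other members Ms4a3 was 62.7, 49.9 and 46.2 against 0.485, 0.123 and 0.508, and the smallest rise of the list was 2.58.

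All 20 of 20 secondary and tertiary granule genes tested also rose, with a median of 5.41. Camp, the cathelicidin peptide precursor, was 1101, 809.6 and 639 in CD45+ and 8.53, 5.10 and 4.21 in CD45- libraries and rose by 6.95 ± 0.45 (adjusted p = 2.7e-09). Ltf, lactoferrin, was 598, 461 and 464 against 4.84, 4.03 and 2.58 and rose by 6.74 ± 0.32 (adjusted p = 2.3e-10). The fractions lay far apart for both genes, with CD45- values of less than 10. Mmp8, a collagenase, Itgb2l and the surface antigen Cd177 rose by 4.66, 4.81 and 5.57. Other genes of the 14 largest rises were Chil3, Lcn2, Olfm4 and Ngp, all products of maturing granulocytes, with rises of 6.89, 6.45, 6.27 and 6.24, and Anxa1 and Lilr4b, with 6.11 and 6.03. The 5 neutrophil markers Ltf, Camp, Ngp, Ly6g and S100a8 summed to 4423 to 6139.5 in CD45+ and 53.3 to 90.4 in CD45- libraries, with Ly6g at 0 in CD45- replicate 3. The 4 markers of granulocyte-monocyte precursors, Mpo, Elane, Prtn3 and Ctsg, summed to 754 to 1670.1 and 3.02 to 16.6. The part of such cells in the results was not tested.

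The AGATAA letters were also counted in these promoters: they were in 5 of 18 secondary granule genes with a window (27.8%) and in 0 of 8 primary granule genes. The other motifs searched in all lists were CCNCNCCC (KLF factors), TTNNGNAA (C/EBP factors) and GAGGAA (PU.1), on both strands, where N is any base. TTNNGNAA was in 14 of the 18 secondary granule windows (77.8%) and in 3 of 8 primary granule windows (37.5%), beside 36.9% of all windows. It was also in 12 of 19 windows of hepatocyte secreted protein genes (63.2%). GAGGAA was in 11 of 18 secondary (61.1%) and in 5 of 8 primary granule windows (62.5%), beside 23.1%. CCNCNCCC was in 10 of 18 (55.6%) and 4 of 8 (50%), beside 45.6%. These shares are descriptions, and lists of this size hold few windows.

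**Figure D2:**
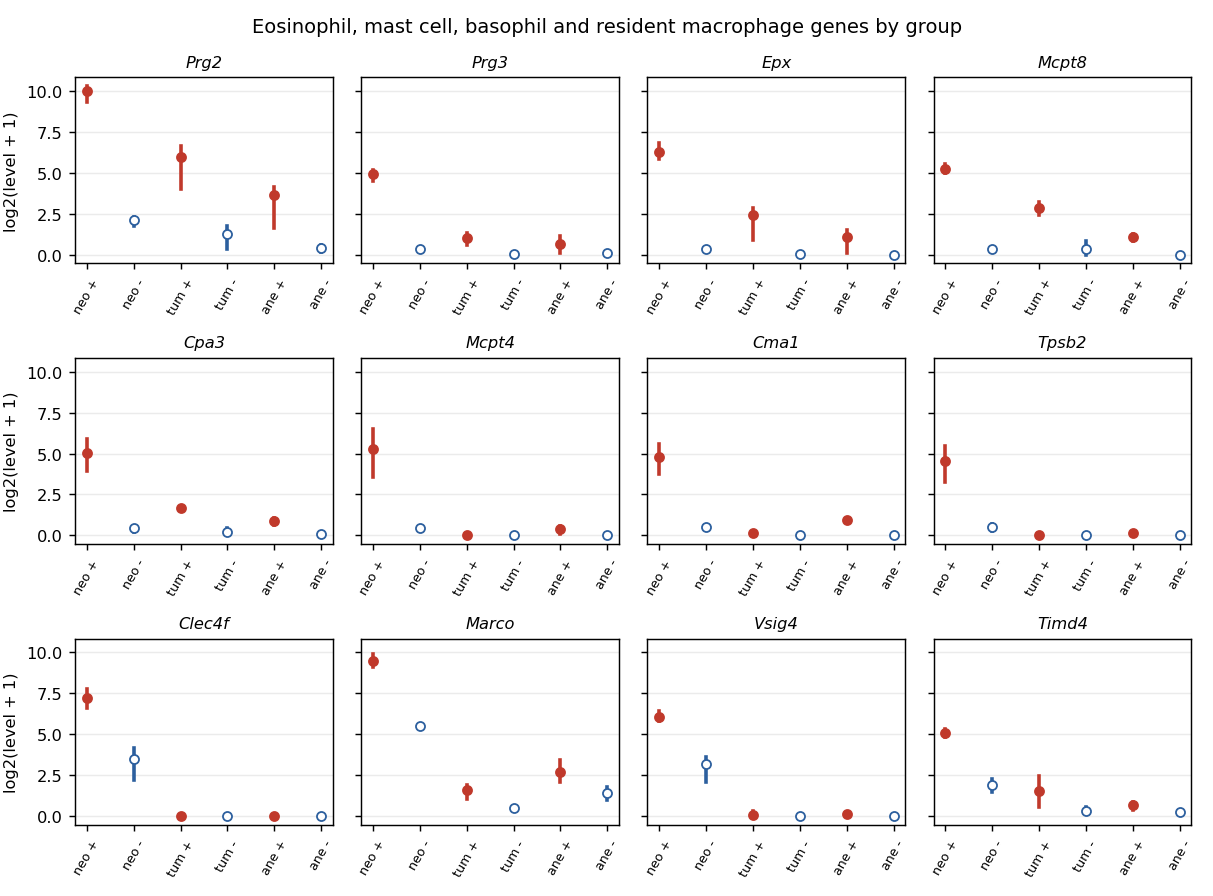
Levels of eosinophil, mast cell and macrophage genes by group, where each point is the mean of 3 libraries and the bar runs from the lowest to the highest of them, on a log2(level + 1) axis. Filled red points are CD45+ and open blue points CD45- cells of neonatal, tumor-bearing and anemic mice. For Mcpt4, Tpsb2 and Clec4f, among others, the neonatal CD45+ libraries lie above every library from tumor-bearing or anemic mice. For Tpsb2 and Clec4f the neonatal CD45- libraries do so too.

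Eosinophil genes rose in part. Of 10 eosinophil genes tested 6 rose, beside 49.6% of all genes, and the other 4 did not pass. Under median-ratio scaling and under quantile normalization 5 of the 10 rose, beside 30% and 23.8% of all genes. In tumor-bearing mice 8 of the 10 rose, beside 50.2% of all genes. Prg2, the major basic protein of the eosinophil granule, had the largest rise of all genes by the naming rule, 7.81 ± 0.64 (adjusted p = 3.5e-08), with 633, 1261 and 1095 in CD45+ and 2.40, 3.86 and 3.72 in CD45- libraries. Its relative Prg3 was 21.6, 34.2 and 33.1 against 0.305, 0.194 and 0.321 and rose by 4.56 ± 0.25 (adjusted p = 6.7e-10). Epx, the eosinophil peroxidase, was 56.1, 114 and 62.6 against 0.256, 0.365 and 0.151 and rose by 5.90 ± 0.44 (adjusted p = 1.2e-08). These granule genes were high in all 3 CD45+ libraries. Siglecf, a surface lectin of eosinophils, rose by 2.07 to between 2.80 and 4.18, and Il5ra, the receptor for their growth factor, rose by 0.97 from at most 0.0432. The call of Il5ra did not hold without CD45+ replicate 3 or any 1 of the CD45- libraries (adjusted p = 0.21, 0.073, 0.071 and 0.065).

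The eosinophil ribonucleases and the chemokine receptor of mature eosinophils did not pass. Ear2 was 2.17, 1.34 and 299.5 in CD45+ and 4.67, 2.26 and 3.82 in CD45- libraries, so that 1 library held nearly all of it, and its adjusted p was 0.35. Ear1 was 0.810, 1.499 and 7.55 against 0.541, 0.191 and 1.12, and Ear6 was 0.00818, 5.31 and 0.638 against 0.258, 0.185 and 0.345. Ear10 was under the filter with 7.70, 0 and 14.7 in CD45+ libraries. The ribonuclease copies are close in sequence and their reads may be divided unevenly. The receptor Ccr3 was 0.827, 0.368 and 2.86 against 0.117, 0.112 and 1.00, and its fractions overlapped. The difference from the tumor contrast passed for 3 of the 10 tested genes, Epx, Prg3 and Alox15, by 3.79 ± 0.62 (adjusted p = 0.0038), 3.62 ± 0.36 (adjusted p = 7.7e-05) and 2.92 ± 0.36 (adjusted p = 3.2e-04), against 0.572% of all genes. For Prg2 it was 3.33 ± 0.91 and did not pass (adjusted p = 0.1). The 3 eosinophil markers Epx, Prg2 and Prg3 summed to 710.3 to 1409 in CD45+ and to 2.96 to 4.42 in CD45- libraries.

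Mast cell and basophil genes rose, and most of those tested rose more than in tumor-bearing mice. Of 22 listed and 15 tested, 14 rose in CD45+ cells, with a median of 3.27 (2.52 relative to all genes). The same median was 0.84 in tumor-bearing and 0.93 in anemic mice, beside medians over all genes that differed by -0.04 and 0.04 between the neonatal contrast and theirs. The difference between the neonatal contrast and that of tumor-bearing mice passed for 8 of the 15, all positive, against 0.572% of all genes, and that from anemic mice for 9, against 2.8%. Both differences share the 6 neonatal libraries. Mcpt4, Cma1 and Tpsb2 passed the filter only through the neonatal CD45+ libraries, being under 1 in every other library of the fit. Members that enter in this way must be high there, so the counts and medians of the list are partly set by the filter.

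Cpa3, the carboxypeptidase of mast cell and basophil granules, was 19.8, 14.5 and 59.1 in CD45+ and 0.158, 0.381 and 0.490 in CD45- libraries. The mast cell proteases followed: Mcpt4 was 10.8, 10.8 and 89.9 against 0.270, 0.339 and 0.523, Cma1 was 20.4, 12.2 and 47.3 against 0.357, 0.315 and 0.576 and Tpsb2, a tryptase, was 16.04, 8.44 and 42.6 against 0.599, 0.198 and 0.474. In all 4 genes replicate 3 was the highest CD45+ library. In CD45+ cells of tumor-bearing mice Mcpt4 was at most 0.0098 and Tpsb2 was listed at 0 in all 3 libraries. The difference from the tumor contrast was 4.1 ± 0.71 for Mcpt4 (adjusted p = 0.0061), 3.93 ± 0.44 for Cma1 (adjusted p = 1.4e-04) and 3.76 ± 0.49 for Tpsb2 (adjusted p = 4.5e-04).

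The basophil proteases were more even. Mcpt8 was 31.2, 45.9 and 30.7 in CD45+ and 0.269, 0.359 and 0.119 in CD45- libraries and rose by 4.87 ± 0.26 (adjusted p = 5.2e-10), and Prss34 was 29.1, 40.6 and 17.1 against 0.125, 0.175 and 0.0846 and rose by 4.65 ± 0.35 (adjusted p = 1.4e-08). Tumor CD45+ means were 6.29 ± 1.96 and 6.13 ± 3.10 (SD, n = 3), and the differences from the tumor contrast were 2.35 ± 0.37 (adjusted p = 0.003) and 2.43 ± 0.50 (adjusted p = 0.022). Gata2, the factor that mast cells and early progenitors keep, was 4.64, 7.71 and 9.90 against 0.129, 0.104 and 0.268 and rose by 2.80 ± 0.22, with a difference of 2.07 ± 0.31 from the tumor contrast (adjusted p = 0.0021). Cyp11a1, a steroid synthesis enzyme, rose by 2.36 from at most 0.0976 to between 2.88 and 8.81. Kit, the receptor of mast cells and progenitors, rose by 2.52, and Hdc, which makes histamine, rose by 4.02 ± 0.60. Hdc rose by 3.99 and 3.43 in tumor-bearing and anemic mice as well, and its difference from the tumor contrast did not pass (adjusted p = 1). Ms4a2, Mitf, Il6 and Csf2rb2 rose by 1.40, 1.72, 3.27 and 2.24. Il1rl1, the IL-33 receptor, was 2.69, 2.02 and 15.1 against 3.65, 2.81 and 13.9 and did not pass. Fcer1a, Il4, Il13, Slc18a2, Mcpt1 and Mcpt2 were under the filter, and Fcer1a, the IgE receptor alpha chain, was 0.662, 0.337 and 2.04 in CD45+ and listed at 0 in all CD45- libraries. The 4 markers Cpa3, Ms4a2, Mcpt8 and Fcer1a summed to 52.8 to 93.3 and 0.427 to 0.807.

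The mast cell and basophil list held the letters AGATAA in 7 of 19 promoters with a window (36.8%), beside 10.3% of all. A granule gene of each cell type shows where they lie, again as the 100 bases before the start on the strand of the gene. Cpa3 is at chr3:20242182-20242281 on the minus strand, with the match beginning 46 bases before the start. Prss34 is at chr17:25298294-25298393 on the plus strand, with the match at 31 bases. The share over promoters is a description, with no test.
Cpa3: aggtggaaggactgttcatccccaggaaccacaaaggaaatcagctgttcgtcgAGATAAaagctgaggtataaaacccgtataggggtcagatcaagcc
Prss34: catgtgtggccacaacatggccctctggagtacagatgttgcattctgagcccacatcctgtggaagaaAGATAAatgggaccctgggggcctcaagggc

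Resident macrophages were marked by 20 genes, of which 19 rose in neonatal CD45+ cells with a median of 3.24, against 1.52 in tumor-bearing and 1.40 in anemic mice. Clec4f, a lectin of liver Kupffer cells, was 219.7, 130.4 and 97.9 in CD45+ and 16.8, 10.4 and 3.66 in CD45- libraries and rose by 3.86 ± 0.36 (adjusted p = 1.6e-07). It was listed at 0 in all tumor CD45+ libraries and reached at most 0.0207 in anemia CD45+ libraries, and the difference from the tumor contrast was 3.87 ± 0.51 (adjusted p = 5.1e-04). Marco, a scavenger receptor, was 554, 578 and 959 against 45.2, 41.4 and 46.2, with a difference of 2.81 ± 0.49 from the tumor contrast (adjusted p = 0.0065). Folr2, a folate receptor of resident macrophages, was 16.9, 35.7 and 23.2 against 2.52, 2.53 and 1.00, and its difference was 3.09 ± 0.35 (adjusted p = 1.7e-04). Timd4 and Vsig4, which take up dying cells and complement-coated particles, also differed from the tumor contrast, by 2.23 ± 0.52 (adjusted p = 0.043) and 2.94 ± 0.42 (adjusted p = 0.0012). In all 5 genes the neonatal CD45- libraries, too, held values above 1.

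The 5 macrophage genes with a difference from tumor were not the whole list. Cd5l was 374, 405 and 578 against 32.5, 28.3 and 26.9 and rose by 3.88 ± 0.37, but it rose by 3.21 in tumor-bearing mice, and its difference from that contrast did not pass (adjusted p = 0.87). Id3, a repressor kept in resident macrophages, rose by 2.75. C1qb, a subunit of the complement starter C1q, was 58.7, 48.3 and 46.5 against 32.4, 27.8 and 18.02 and did not pass (adjusted p = 0.18), although the fractions did not overlap and it was higher in a fit of the neonatal libraries alone (adjusted p = 0.011). The 5 resident macrophage markers Vsig4, C1qa, C1qb, Clec4f and Cd5l summed to 709 to 886 in neonatal CD45+ and 72.00 to 124 in CD45- libraries, and to 33.2 to 138 and 34.6 to 69.3 in CD45+ libraries of tumor-bearing and anemic mice. None was at 0 in a neonatal library.

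General monocyte and macrophage genes rose in 21 of 24, with a median of 3.43 that was 3.36 in tumor-bearing and 2.71 in anemic mice. Lyz2, lysozyme, rose by 5.24 and its copy Lyz1 by 4.59, and the transglutaminase F13a1 by 3.92. Klf4, a factor of monocyte fate, was 18.8, 8.05 and 26.8 in CD45+ and 0.547, 0.516 and 0.582 in CD45- libraries and rose by 3.46 ± 0.33 (adjusted p = 1.6e-07). Genes with a single exon were often listed at 0 in these data. Of 95 single-exon coding genes that reached 10 in a neonatal library, 48 (50.5%) were listed at 0 in at least 1 of the 6, against 17 of 6034 other genes (0.282%). Junb, among the 14 largest rises, is such a gene, at 168, 145 and 294 in CD45+ and 10.9, 0 and 0 in CD45- libraries.

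Dendritic cell genes rose in 12 of 15 tested, and Zbtb46, the factor that sets conventional dendritic cells apart, fell by 0.87, at 0.781, 1.22 and 1.97 against 2.51, 3.10 and 3.99. That call did not hold without CD45+ replicate 1 or 2 or CD45- replicate 3 (adjusted p = 0.096, 0.051 and 0.079). Flt3, Irf8, Irf4, Itgax and Ly75, which progenitors, monocytes or B cells also express, rose by 2.81, 3.45, 2.92, 2.97 and 2.95. B cell genes rose in 14 of 16, with a median of 3.20. Cd79a, a signalling chain beside the B cell antigen receptor, was 49.2, 34.1 and 98.9 in CD45+ and 0.534, 0.374 and 1.13 in CD45- libraries, highest in replicate 3, and rose by 5.09 ± 0.50 (adjusted p = 2.4e-07). Pax5, the factor of B cell identity, rose by 3.60, and Cd37, Ebf1 and Blnk by 4.34, 3.26 and 3.30. The 3 B cell markers Ms4a1, Cd79a and Pax5 summed to 46.03 to 187 against 0.611 to 1.92.

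Single genes of B cell stages differed between the neonatal contrast and the others, and the B precursor list as a whole gave other values. Of its 7 tested members 5 rose in neonates and as many in tumor-bearing and in anemic mice, with medians of 2.01, 2.07 and 1.73. The difference from tumor passed for 1 member, and that from anemia for 1 in the positive and 1 in the negative direction. Igll1, the lambda5 surrogate light chain made only by B precursors, was 9.93, 4.897 and 4.13 in neonatal CD45+ and 0.0357, 0.142 and 0.608 in CD45- libraries and rose by 2.48 ± 0.23 (adjusted p = 1.1e-07). Its tumor CD45+ mean was 0.0187 ± 0.0324 and it was listed at 0 in all anemia CD45+ libraries, and its differences from those contrasts were 2.45 ± 0.32 (adjusted p = 4.5e-04) and 2.48 ± 0.32 (adjusted p = 2.6e-04). Igll1 passed the filter only through the neonatal CD45+ libraries, so its positive differences are partly set by the filter. Some genes of mature B cells and plasma cells went the other way. Of those named here, only Jchain differed at the threshold from both tumor and anemia. Jchain, which joins secreted antibody, was at most 0.266 in any neonatal library against 272 ± 338 (SD, n = 3) and 183 ± 198 in CD45+ libraries of tumor-bearing and anemic mice, with differences of -5.09 ± 1.07 (adjusted p = 0.025) and -5.12 ± 1.07 (adjusted p = 0.008). Fcer2a (CD23) and the complement receptor Cr2, both on mature B cells, were 0.284, 0.0298 and 1.87 and 0.244, 0.111 and 2.47 in neonatal CD45+ libraries against 53.9 ± 5.41 and 133 ± 16.1 in anemia, with differences of -4.9 ± 0.81 (adjusted p = 0.0016) and -4.83 ± 0.99 (adjusted p = 0.0068). Their tumor CD45+ means were 15.4 ± 20.0 and 33.1 ± 45.4. The differences of Fcer2a and Cr2 from tumor, -2.57 ± 0.81 and -3.06 ± 0.99, did not pass (adjusted p = 0.18 and 0.2). Rasgrp3, a signalling gene of B cells, differed by -3.61 ± 0.51 from anemia (adjusted p = 5.1e-04).

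T and NK cell genes rose in 21 of 30, with a median of 1.33 in neonates, 1.97 in tumor-bearing and 3.67 in anemic mice, and 49.6% of all genes rose in neonates. Under median-ratio scaling 18 of the 30 rose, beside 30% of all genes, and under quantile normalization 9, beside 23.8%. The difference from anemia passed for 16 members, all negative, against 4.13% of all genes. Gzma, a granzyme of NK cells and cytotoxic T cells, was 55.01, 34.7 and 128 in neonatal CD45+ and 2.26, 0.905 and 1.74 in CD45- libraries and rose by 4.63 ± 0.40, with a tumor CD45+ mean of 1.23 ± 1.13 and a difference of 3.62 ± 0.56 from the tumor contrast (adjusted p = 0.0026). In anemic mice it rose by 4.52, with a CD45+ mean of 25.3 ± 5.39, and the difference from that contrast was 0.11 ± 0.56 and did not pass (adjusted p = 0.94). Gzmb, Nkg7, Il2rb and Lat rose by 2.99, 3.22, 2.28 and 1.85. The 4 T cell markers Cd3e, Cd3d, Cd3g and Lck summed to 10.9 to 30.6 in CD45+ and 5.28 to 6.26 in CD45- libraries, with Cd3e at 0 in 1 CD45- library and Cd3d and Cd3g at 0 in 2 and 1. Lck made up most of the CD45- sums, at 6.11, 4.97 and 5.71. It was 4.91, 3.72 and 10.1 in CD45+ libraries, so its fractions overlapped. The Cd3 genes reached at most 0.18 in a CD45- library. The 3 NK cell markers Ncr1, Klrb1c and Eomes summed to 0.389 to 7.47 and 0 to 0.176. The lymphocyte GTPases Gimap4, Gimap6 and Gimap8 differed from anemia by -3.84 ± 0.97, -4.02 ± 0.74 and -4.04 ± 0.87 (adjusted p = 0.023, 0.0034 and 0.009).

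**Figure D3:**
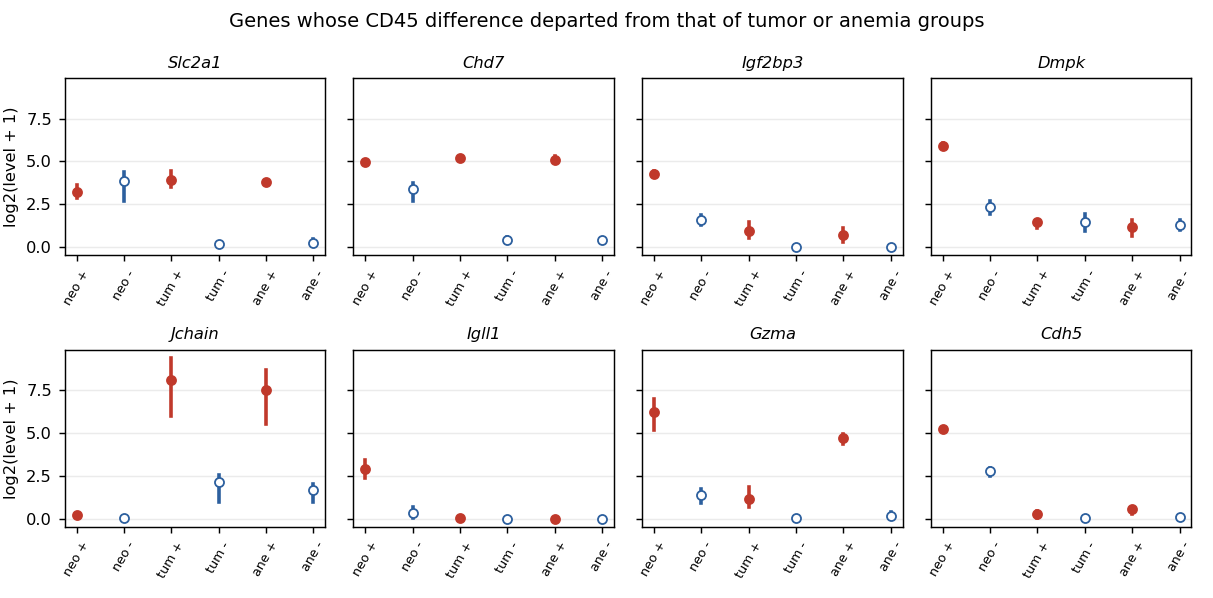
Levels of selected genes whose CD45+ against CD45- contrast in neonates differed from that of tumor-bearing or anemic mice, as group means of 3 libraries with bars from the lowest to the highest, on a log2(level + 1) axis. Some genes with larger differences are not shown. Filled red points are CD45+ and open blue points CD45-. Slc2a1 is near 0 in the CD45- fractions of tumor-bearing and anemic mice, while Jchain is near 0 in both neonatal fractions.

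Over all genes, the neonatal contrast differed from the tumor contrast for 121 of 11195 genes (1.08%), 64 with a positive difference (0.572%) and 57 with a negative one (0.509%). It differed from the anemia contrast for 776 genes (6.93%), 314 positive (2.8%) and 462 negative (4.13%). Single libraries moved these counts by over 1.5 times. Without CD45+ replicate 1, 2 or 3 the 64 became 25, 30 and 42. The 57 became 18 and 13 without CD45+ replicate 1 or 2, and 28 and 29 without CD45- replicate 1 or 3. Without CD45+ replicate 1 or 2 the 314 became 163 and 209 and the 462 became 266 and 293.

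Some of the large differences lay on the CD45- side. The glucose transporter Slc2a1 was 11.1, 7.22 and 6.12 in neonatal CD45+ and 14.7, 19.6 and 5.43 in neonatal CD45- libraries, while it was 14.2 ± 5.73 against 0.124 ± 0.0329 in tumor-bearing and 13.03 ± 0.809 against 0.188 ± 0.168 in anemic mice (SD, n = 3). Every neonatal CD45- library lay above every CD45- library of the other mice, with differences of -4.21 ± 0.51 (adjusted p = 2.3e-04) and -4.09 ± 0.51 (adjusted p = 1.8e-04).

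Chd7, a chromatin remodeller, showed the same form: 31.9, 27.1 and 31.3 in neonatal CD45+ and 12.1, 10.4 and 5.37 in CD45- libraries, against 35.2 ± 3.23 and 0.337 ± 0.116 in tumor-bearing mice, with a difference of -3.10 ± 0.34 (adjusted p = 1.4e-04). Tmem40 was 6.25, 7.28 and 5.25 against 9.82, 9.42 and 5.07 in neonates and 15.4 ± 8.20 against 1.15 ± 0.898 in tumor-bearing mice (-3.13 ± 0.63, adjusted p = 0.02). Complement C3 was 124, 88.9 and 96.6 against 9.92, 7.50 and 29.4, so that it rose by 2.87 ± 0.45, less than in tumor-bearing mice (5.76, difference -2.89 ± 0.64, adjusted p = 0.032). Lipg, an endothelial lipase, Ggt1, which cleaves glutathione, and Dmkn were under 2 in every neonatal library, with tumor CD45+ means of 27.1 ± 20.8, 17.1 ± 14.1 and 12.95 ± 10.7 and differences of -4.23 ± 0.58, -3.09 ± 0.52 and -2.95 ± 0.61 (adjusted p = 8.0e-04, 0.0046 and 0.023). Lipg and Dmkn passed the filter only through the tumor CD45+ libraries, being under 1 in every other library of the fit. Their negative differences are thus partly set by the filter. Chd7 also differed from the anemia contrast, by -3.05. For Tmem40, C3, Lipg and Dmkn the difference from anemia was -0.27, -0.19, -0.28 and 0.27, and none passed. That of Ggt1 did not pass either (adjusted p = 0.32).

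Other genes differed more between the fractions in neonates than in the other mice. Dmpk, the myotonic dystrophy kinase, was 65.9, 54.6 and 55.2 in neonatal CD45+ and 5.39, 3.71 and 2.81 in CD45- libraries, and its group means lay between 1.26 and 1.77 in the other 4 groups (difference from tumor 3.60 ± 0.43, adjusted p = 2.3e-04). Igf2bp3, a fetal RNA-binding protein, was 17.1, 20.9 and 16.1 against 1.39, 2.58 and 2.10 and rose by 2.67 ± 0.26, with a difference of 1.82 ± 0.37 from tumor (adjusted p = 0.02) and 2.03 ± 0.37 from anemia (adjusted p = 0.003). Cdh5, an adhesion molecule of endothelium that some fetal blood progenitors also carry, was 36.4, 35.8 and 37.2 against 6.92, 5.87 and 4.61, and differed by 2.26 ± 0.28 (adjusted p = 2.8e-04) and 2.04 ± 0.28 (adjusted p = 3.6e-04). The endothelial genes Kdr and Tie1 did not rise with it: Kdr, named here after its values were seen, was 1.18, 1.69 and 3.98 against 3.76, 2.88 and 9.53 and fell by 0.91, which did not hold without CD45+ replicate 1 or 2 or CD45- replicate 3 (adjusted p = 0.098, 0.06 and 0.12), nor in the neonatal libraries alone (adjusted p = 0.11). Tie1 was 1.08, 1.37 and 1.28 against 1.95, 1.09 and 2.17 and did not pass, though it was lower without CD45- replicate 2 (adjusted p = 0.023). Against anemia the largest positive differences were in granulocyte genes: Olfm4 5.09, Stfa1 5.07, Epx 4.96, Prg2 4.91, Ms4a3 4.23, Stfa3 4.07, Prg3 4.05 and Fcnb 4.03 on the log2 scale. Of these, only Epx and Prg3 also differed from the tumor contrast. For Olfm4, Stfa1, Ms4a3, Stfa3 and Fcnb the difference from tumor was 0.71, 0.96, -0.48, 0.66 and 0.39, for Prg2 3.33, and none passed. The cystatin Stfa1 was 1015, 927 and 856 in neonatal CD45+ libraries, with means of 80.5 ± 65.7 in tumor and 0.631 ± 1.09 in anemia CD45+ libraries.

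Liver transcripts were present in both neonatal fractions, and more of their genes fell than rose in CD45+ cells. Albumin (Alb) was 22.8, 41.2 and 133 in CD45+ and 72.3, 52.3 and 342 in CD45- libraries, and the highest library of each fraction was replicate 3. It did not pass (adjusted p = 0.11), but was lower in CD45+ cells without CD45+ replicate 3 (adjusted p = 0.011) or CD45- replicate 2 (adjusted p = 0.03). Of 22 genes for secreted liver proteins, 7 fell and 2 rose, against 10.3% and 49.6% of all genes, and the median was -0.84. Under median-ratio scaling 14 fell and 0 rose, and under quantile normalization 13 fell and 2 rose. Fabp1, the liver fatty acid carrier, was 3.71, 4.85 and 6.08 against 11.02, 5.78 and 41.4 and fell by 1.38 ± 0.42 (adjusted p = 0.0088), with overlapping fractions, and the call did not hold in a fit of the neonatal libraries alone (adjusted p = 0.073). Serpina1b and Serpina1c, near-identical antitrypsin copies, fell by 1.29 and 1.31, and neither call held without CD45+ replicate 1 (adjusted p = 0.071 and 0.066) or CD45- replicate 3 (adjusted p = 0.073 and 0.075), nor in the neonatal libraries alone (adjusted p = 0.081 and 0.087). The ones that rose were Apoc1, an apolipoprotein that macrophages also make, and transferrin (Trf). Apoc1 was 97.9, 80.8 and 138 against 22.9, 17.96 and 53.8 and rose by 1.83, and Trf rose by 2.01, and neither call held under median-ratio scaling. The 4 hepatocyte markers Alb, Apoa1, Afp and Ttr summed to 38.2 to 228 in CD45+ and 79.2 to 525 in CD45- libraries, and to at most 1.12 in any library of tumor-bearing or anemic mice. The part of liver RNA in other results was not tested.

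**Figure D4:**
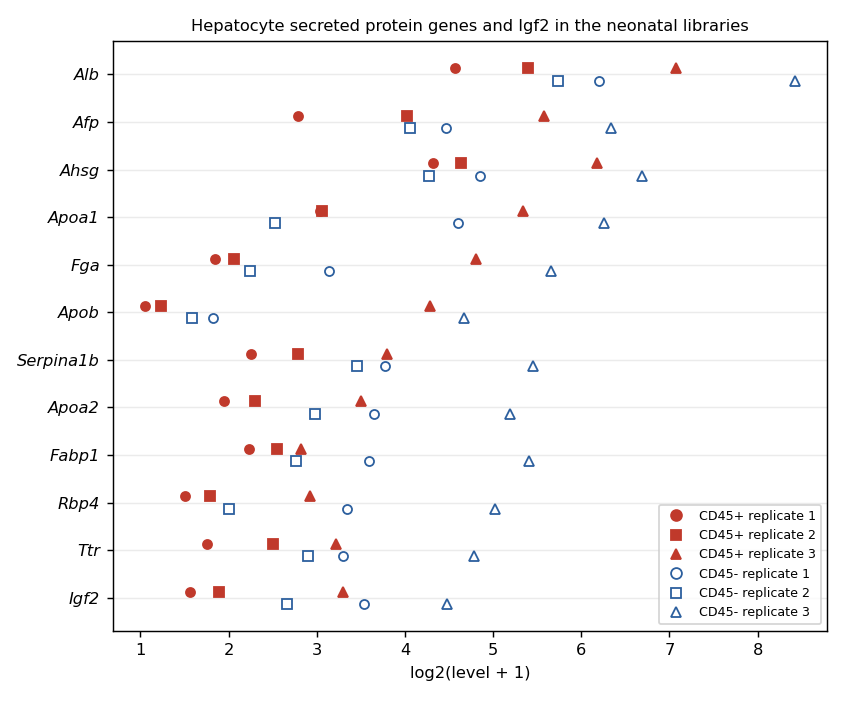
Levels of 11 hepatocyte genes and of Igf2 in the 6 neonatal libraries, each a point on a log2(level + 1) axis, with filled red marks for CD45+ and open blue marks for CD45- libraries and the shape for the replicate. In every gene shown, replicate 3 is the highest library of its fraction.

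Other fetal genes were mixed. Of 9 tested of 18 listed, 5 rose and 2 fell, and the median of 0.87 became -0.03 under quantile normalization. The chromatin protein Hmga1 was 55.03, 57.4 and 44.1 in CD45+ and 4.82, 9.96 and 5.20 in CD45- libraries and rose by 2.85 ± 0.44 (adjusted p = 3.1e-05). Arid3a, a factor of fetal-type B cell development, rose by 3.54, and Lin28a, which holds back let-7 miRNAs in fetal progenitors, was 1.36, 2.00 and 2.33 against 0, 0 and 0.0293 and rose by 1.51. Igf2 and Mest, imprinted growth genes, fell by 1.31 and 0.88, and Igf2 was 1.95, 2.70 and 8.80 against 10.6, 5.33 and 21.2 with overlapping fractions. The call of Igf2 did not hold without CD45+ replicate 1 (adjusted p = 0.054) or CD45- replicate 3 (adjusted p = 0.057), nor in the neonatal libraries alone (adjusted p = 0.071). The 3 stromal markers Col1a1, Col3a1 and Dcn summed to 1.95 to 2.38 in CD45+ and 3.65 to 7.01 in CD45- libraries.

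Megakaryocyte and platelet genes gave no direction that held across the scalings. Of 15 tested 7 rose and none fell, beside 49.6% and 10.3% of all genes, with a median of 0.58. Under median-ratio scaling 4 rose and 3 fell, beside 30% and 24.5% of all genes, and the median was 0.07. With quantile normalization 3 rose and 3 fell, beside 23.8% and 25.1%, and the median was -0.41. Nbeal2, needed for alpha granules and also made by neutrophils, rose by 3.68. Clec1b rose by 2.92. Selp and Gp1bb rose by 1.25 and 1.19, and under quantile normalization neither passed (adjusted p = 0.25 and 0.82), whereas the platelet integrin Itga2b was 11.8, 17.8 and 6.05 against 9.91, 9.12 and 12.6 and did not pass. The markers Pf4, Ppbp, Itga2b and Gp9 summed to 23.3 to 125 and 19.6 to 25.3.

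Among checkpoint ligands and suppressive enzymes, for which CD71+ erythroid cells of neonates are known, 20 of 25 tested rose and none fell, beside 49.6% and 10.3% of all genes, with a median of 1.55. Under median-ratio scaling 14 rose and 1 fell, beside 30% and 24.5% of all genes, and under quantile normalization 11 rose and 2 fell, beside 23.8% and 25.1%. Arg2, the arginase that such erythroid cells are reported to use, was 2.67, 1.505 and 8.72 in CD45+ and 0.107, 0.171 and 0.144 in CD45- libraries and rose by 1.97 ± 0.63 (adjusted p = 0.012), which did not hold without CD45+ replicate 3 (1.41, adjusted p = 0.079). Arg1, the form of alternatively activated macrophages, was 14.02, 4.73 and 3.56 against 1.60, 0.563 and 8.33, with fractions that overlapped, and rose by 1.12 ± 0.47 (adjusted p = 0.049). The call of Arg1 did not hold with the replicate number as a block (adjusted p = 0.051), nor without CD45+ replicate 1 or CD45- replicate 1 or 2 (adjusted p = 0.28, 0.15 and 0.29). Cd274, which encodes PD-L1, was 8.26, 8.62 and 15.1 against 1.32, 1.79 and 1.14 and rose by 2.23 ± 0.50 (adjusted p = 9.9e-04).

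The interleukin gene Il10, a suppressor of macrophage activation, was 7.80, 9.58 and 9.34 in CD45+ and 0.586, 0.234 and 0 in CD45- libraries and rose by 2.98 ± 0.30, and its difference from the tumor contrast was 1.92 ± 0.42 (adjusted p = 0.032). Il4ra went the other way in that comparison: it rose by 2.59 ± 0.25 in neonates, from 1.42, 1.23 and 1.78 to 11.2, 12.2 and 19.4, and by 4.39 in tumor-bearing mice (difference -1.80 ± 0.36, adjusted p = 0.018). Tgfb1 was 46.9, 45.3 and 40.6 against 16.3, 18.3 and 17.7 and rose by 1.30 ± 0.24, while Tgfb3 rose by 1.37. The galectins Lgals1 and Lgals3 rose by 3.47 and 4.49, whereas Lgals9 was 72.5, 42.9 and 31.8 against 22.5, 17.02 and 24.97 and did not pass (adjusted p = 0.054), though it did without CD45+ replicate 3 (adjusted p = 0.038). The costimulatory ligands Cd80 and Cd86 rose by 2.72 and 4.48, the ectonucleotidases Entpd1 and Nt5e, which make adenosine, by 3.44 and 0.81, and the prostaglandin enzymes Ptgs2 and Ptges by 2.09 and 1.13. Stat3, Vsir, Gdf15, Cd200 and Cd200r1 rose by 3.12, 1.07, 1.55, 1.23 and 1.86. Vsir did not pass without CD45+ replicate 1 or 2 or CD45- replicate 2 (adjusted p = 0.065, 0.073 and 0.077), nor Gdf15 without CD45+ replicate 3 (adjusted p = 0.057). The calls lost under median-ratio scaling were those of Arg1, Gdf15, Nt5e, Tgfb1 and Vsir among the genes of this list, and under quantile normalization those of Arg1, Arg2, Cd200, Cd200r1, Cd274, Gdf15, Nt5e, Ptges and Vsir. Cd47, the signal that spares red cells from engulfment, was 86.03, 103 and 103 against 116, 133 and 241 and did not pass (adjusted p = 0.051), although the fractions did not overlap and it was lower without CD45- replicate 1 (adjusted p = 0.025). Artn was 0.391, 0.0613 and 0.208 against 1.08, 0.281 and 1.32, Havcr2 was 1.29, 1.79 and 3.02 against 1.34, 1.59 and 2.47, and Pdcd1lg2 was at most 0.674, and none of the 3 passed. Nos2 was under the filter and at most 0.0479.

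The phagocyte machinery rose broadly. All 7 NADPH oxidase subunits rose, with a median of 3.98: Cybb, the catalytic subunit, was 140.2, 101 and 163 in CD45+ and 3.93, 2.62 and 3.58 in CD45- libraries and rose by 4.94 ± 0.31 (adjusted p = 1.9e-09), and Ncf1, Ncf4 and Cyba rose by 4.38, 3.98 and 3.87. Pattern and Fc receptors rose in 19 of 20, among them Fcgr3, Fcgr1, Fcer1g, Pirb and Tlr2 by 3.30, 2.93, 3.61, 3.77 and 2.93. Leukocyte integrins and selectins rose in 11 of 13, with Itgb2 at 111, 68.3 and 84.97 against 2.69, 2.13 and 1.67. All 10 of 10 MHC class II genes rose with a median of 2.89, which was 5.35 in anemic mice, and the difference from anemia passed for 6, all negative, against 4.13% of all genes. Cd74, the invariant chain, was 149, 169 and 231 against 7.12, 17.5 and 4.78 and rose by 4.25 ± 0.59. MHC class I genes rose in 14 of 16, led by Psmb8, H2-K1, H2-D1 and Psmb9 with 3.42, 3.53, 2.76 and 2.89.

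Members of signalling lists rose more often than the 49.6% of all genes. Inflammatory cytokines and chemokines rose in 19 of 20, cytokine and chemokine receptors in 23 of 28, NF-kB factors and inhibitors in 13 of 15 and immediate early genes in 14 of 19 tested. Il6 was 4.71, 6.63 and 21.9 in CD45+ libraries and listed at 0 in 2 of 3 CD45- libraries. Ltb, Ccl2, Ccl3 and Ccl6 rose by 3.01, 2.09, 4.13 and 2.88. Nr4a1, an early gene, was 33.7, 24.7 and 57.05 against 0.687, 0.323 and 0.641 and rose by 4.59 ± 0.33 (adjusted p = 8.7e-09), and Fos and Fosb rose by 5.15 and 5.99. Rel, Nfkbiz and Bcl3 rose by 4.30, 5.13 and 3.19. Interferon-stimulated genes did not share this: 7 of 21 rose and 3 fell, and their median of 0.65 was -0.05 under median-ratio scaling and -0.11 under quantile normalization. Mx2 and Oas2 rose by 1.90 and 2.27, whereas Rsad2 was 13.9, 20.5 and 13.3 against 58.4, 59.2 and 114 and fell by 2.17 ± 0.63 (adjusted p = 0.0069), and Oas3 fell by 1.65.

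Cell cycle genes were lower in the CD45+ fraction. Of 31 DNA replication genes 17 fell and none rose, with a median of -0.94, and of 26 genes of mitosis and cytokinesis 19 fell and none rose, with a median of -1.10, beside 10.3% of all genes that fell. Orc1, part of the origin recognition complex, was 6.79, 7.91 and 4.07 in CD45+ and 26.6, 26.9 and 25.4 in CD45- libraries and fell by 1.95 ± 0.29 (adjusted p = 2.4e-05). Cdc6, Rrm2, Tyms and Lig1 fell by 2.21, 2.31, 1.46 and 1.41. Mki67, the antigen of cycling cells, was 211, 259 and 151 against 908, 940.0 and 1147 and fell by 2.29 ± 0.47 (adjusted p = 5.0e-04), and the cyclin Ccna2 fell by 2.27 ± 0.41. Relative to the median of all genes these shifts came to -1.69 and -1.85, and under median-ratio scaling 30 of 31 and 26 of 26 fell. The mitosis median was -2.25 in anemic mice, and the difference from that contrast passed for 3 of 26 members, all positive, against 2.8% of all genes.

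Housekeeping lists show how far the direction of small changes rests on scaling. Ribosomal protein genes had a median of 0.54 with 3 of 41 higher, and -0.40 with 4 lower under median-ratio scaling. Proteasome genes had 0.39 with 5 of 25 higher, and -0.52 with 11 lower. Respiratory chain genes had 0.32 with 7 of 29 higher, and -0.50 with 10 lower. All 3 medians lay under the 0.75 of all genes in the unscaled data. Glycolytic enzymes were higher beyond that, with 13 of 20 that rose and a median of 2.11. The hexokinases moved apart: Hk3, the form of granulocytes and monocytes, rose by 3.74 ± 0.37 and Hk2 by 3.31, and Hk1, the red cell form, fell by 1.34 ± 0.31 (adjusted p = 0.0012), from 55.8, 38.01 and 66.5 in CD45- to 23.6, 17.4 and 19.2 in CD45+ libraries. Bpgm, which makes the red cell regulator of oxygen release, fell by 2.74 ± 0.59, and Pfkp, Ldhb and Pkm rose by 4.09, 2.78 and 4.29.

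**Figure D5:**
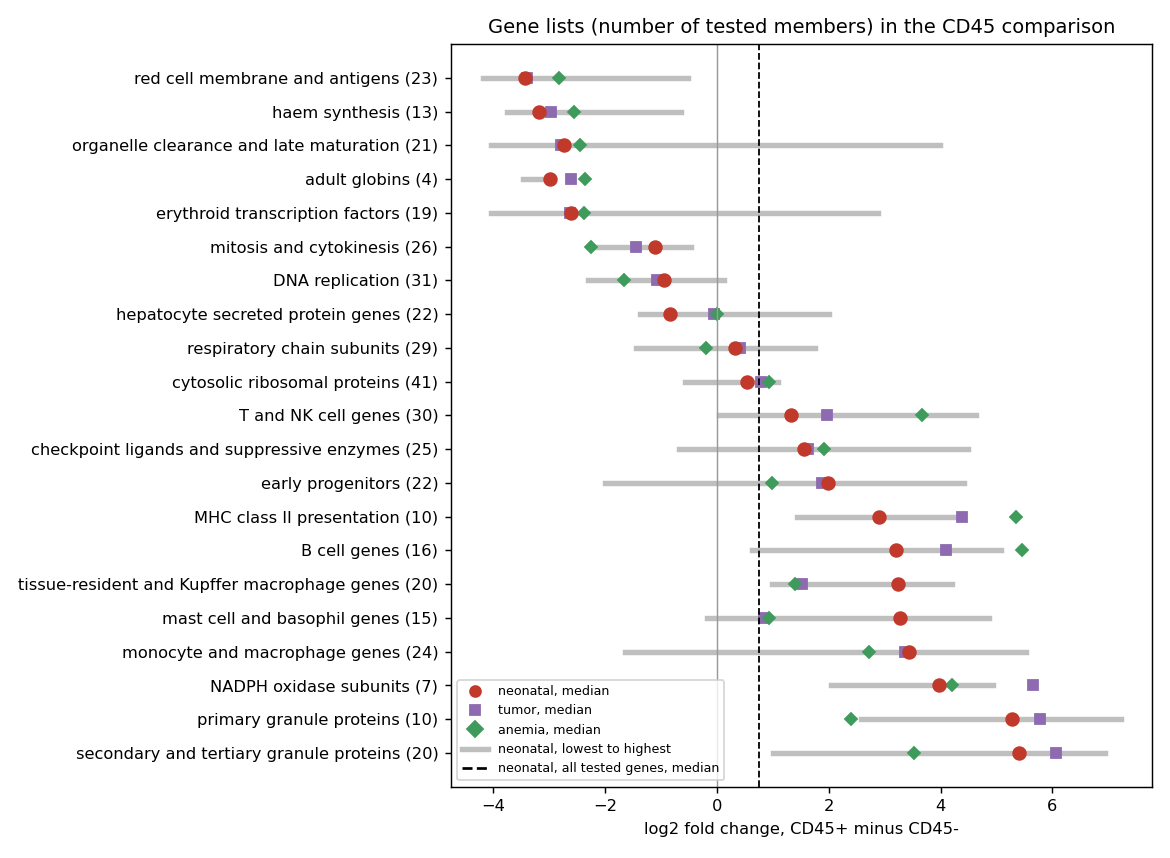
Log2 fold change, CD45+ minus CD45- cells, for 21 of the gene lists. Red circles are the neonatal median, purple squares the tumor and green diamonds the anemia median, grey bars run from the lowest to the highest neonatal member, and the dashed line is the neonatal median of all tested genes, 0.75. The neonatal medians of globin, haem synthesis, membrane, transcription factor and maturation lists lie left of 0, and those of both granule lists lie farthest right of the lists shown.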

How the data were processed

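Per the labels' protocols, TruSeq RNA libraries of sorted spleen cells were sequenced. Bowtie 0.12.2 and build mm8 are named in the submitters' processing notes, and the quantification tool, annotation and scaling are not given in the sources used here. The authors deposited 1 table of log2 values per gene and library, without counts, so depth is unknown and its share in the error cannot be computed. Values were taken out of the log, 4817 blank neonatal cells (5.62%) were set to 0, and limma 3.58.1 (trend and robust options, with statmod 1.5.0 under R 4.3.3) fitted 1 mean for each group to log2(level + 1) of the 18 Ter119+CD71+ libraries, without scaling between libraries. Tests were two-sided, with Benjamini-Hochberg adjustment over 11195 genes and a threshold of 0.05. The differences between the neonatal contrast and the tumor or anemia contrast were terms of the same fit. The fit was tested on simulated data. Of 8 symbols listed more than once, the entry of highest mean was kept, and 22 symbols turned into dates are not named.

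Members and gene lists were chosen with earlier results of these data known. Named genes were the 14 largest changes in each direction that passed without overlap, whose higher fraction averaged 10 or more, and leaving out clone or locus symbols and replication-dependent histones. All members of the globin, eosinophil, mast cell and basophil, primary granule and suppressive lists were added, with up to 5 passed members of every other list by adjusted p, up to 2 against its direction, and the 8 largest differences in each direction from tumor and anemia. Members that did not pass are named with values only, and some genes that the rule names, and 2 of the cell type markers, are not reported here.

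Replicate numbers are shared by the titles of all groups. Deviations from the group means correlated between neonatal fractions by 0.22, 0.23 and 0.36 for numbers 1, 2 and 3. The numbers may therefore pair the libraries, but the main fit did not use such a pairing. A fit with the number as a block was an alternative, in which neonatal, tumor and anemia libraries shared the effect of each number. No fit paired the neonatal libraries by themselves. Other alternatives were the pseudocount, the filter, 3 ways of scaling, blanks as missing, the neonatal libraries alone, no trend or robust option, and each neonatal library left out. Promoter windows are those of RefSeq (GRCm38.p6), with 639 of 831 listed symbols matched, and single-exon genes are from GENCODE vM21. The files' own build differs, so coordinates come from the RefSeq windows only.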

Additional observations from a re-analysis of the deposited data

Results flagged for a closer look

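In each gene given here the CD45+ against CD45- difference of neonatal mice departed from that of tumor-bearing or anemic mice, by a limma test of the difference itself at an adjusted p below 0.05. The numbers are neonatal minus other log2 fold changes, and both sets share the neonatal libraries. There were 64 positive and 57 negative differences from tumor over all genes tested, and 314 positive and 462 negative differences from anemia. A gene given against tumor or anemia need not differ from the other. No tested member of the neutrophil granule lists, nor Olfm4, Stfa3, Fcnb or Prg2, differed from tumor at the threshold. Lipg, Tmem40, Ggt1, Dmkn and C3 did not differ from anemia at the threshold.

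Against tumor, mast cell and basophil genes stood out in number: the difference was 4.1 for Mcpt4, 3.93 for Cma1, 3.76 for Tpsb2, 2.83 for Cpa3, 2.43 for Prss34, 2.35 for Mcpt8, 2.07 for Gata2 and 1.87 for Cyp11a1. Of these, Mcpt4, Cma1 and Tpsb2 passed the filter only through the neonatal CD45+ libraries. Among eosinophil genes the difference was 3.79 for Epx, 3.62 for Prg3 and 2.92 for Alox15. For resident macrophage genes it came to 3.87 for Clec4f, 3.09 for Folr2, 2.94 for Vsig4, 2.81 for Marco and 2.23 for Timd4. Lymphoid and cytokine genes had 3.62 for Gzma, 2.45 for Igll1 and 1.92 for Il10, and a negative value of -1.80 for Il4ra. Igll1, too, passed the filter only through the neonatal CD45+ libraries. Positive values were also found of 3.60 for Dmpk, 2.26 for Cdh5 and 1.82 for Igf2bp3. Negative values, where the neonatal fold change was the lower one, were -5.09 for Jchain, -4.23 for Lipg, -4.21 for Slc2a1, -3.13 for Tmem40, -3.10 for Chd7, -3.09 for Ggt1, -2.95 for Dmkn and -2.89 for C3. Of these, Lipg and Dmkn passed the filter only through the tumor CD45+ libraries.

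Against anemia, neutrophil granule and granulocyte genes had 5.09 for Olfm4, 5.07 for Stfa1, 4.23 for Ms4a3, 4.07 for Stfa3, 4.03 for Fcnb, 3.99 for Prtn3, 3.97 for Mpo, 3.85 for Ctsg, 3.80 for Elane, 2.88 for Itgb2l and 2.37 for Cd177. Eosinophil genes had 4.96 for Epx, 4.91 for Prg2, 4.05 for Prg3, 2.93 for Alox15 and 1.41 for Siglecf. Mast cell and basophil genes had 3.78 for Mcpt8, 3.71 for Mcpt4, 3.64 for Tpsb2, 3.56 for Cpa3, 3.41 for Prss34, 3.15 for Cma1, 2.54 for Gata2, 2.10 for Cyp11a1 and 1.03 for Ms4a2. In macrophage and monocyte genes the values were 3.85 for Clec4f, 2.97 for Folr2, 2.91 for Vsig4, 2.82 for Timd4, 2.70 for Marco, 2.07 for Cd5l, 1.86 for Slc40a1, 1.72 for F13a1, 1.59 for Ly6c2 and 1.98 for Lgals3. In enzymes of lipid mediators, lysosomes and metabolism they were 2.88 for Ptgs1, 2.33 for Pla2g4a, 2.32 for Lta4h, 2.45 for Ctsd, 1.94 for Gpx3 and 1.19 for Ldhb. Progenitor, platelet, vascular and fetal genes had 2.65 for Cd34, 2.37 for Clec1b, 2.04 for Cdh5, 2.03 for Igf2bp3 and 1.90 for Arid3a, and -0.85 for Mest. Other positive values were 3.74 for Dmpk and 2.48 for Igll1. Negative values belonged mostly to lymphocyte genes: -5.12 for Jchain, -4.9 for Fcer2a, -4.83 for Cr2, -4.04 for Gimap8, -4.02 for Gimap6, -3.84 for Gimap4, -3.61 for Rasgrp3, -2.73 for Lat, -2.23 for Irf4, -1.87 for Ltb and -1.62 for Ebf1. The others were -4.09 for Slc2a1, -3.05 for Chd7, -1.99 for Il4ra, -1.88 for Bbc3, -1.75 for Cd200, -1.48 for Pdcd1lg2 and -1.47 for Nt5e.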

How the results depend on the processing

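With each neonatal library left out in turn, the genes higher in CD45+ cells numbered 4898 to 5287 and the genes lower 974 to 1094. A filter at 10 gave 2917 higher genes because fewer were tested. Median-ratio scaling gave 3303 higher and 2692 lower genes and quantile normalization 2663 and 2808, where the scalings lower the median of all genes by construction. The positive differences from tumor (64) numbered 25 at a pseudocount of 0.1, 130 at 10, 139 without a filter, 20 with a filter at 10, 23 with blanks as missing and 25 to 60 with 1 library left out. The negative ones (57) numbered 94 without a filter, 17 with a filter at 10, 122 under median-ratio scaling, 23 with blanks as missing and 13 to 84 with 1 library left out. Positive differences from anemia (314) numbered 115 at a pseudocount of 0.1, 498 at 10, 134 with a filter at 10 and 163 to 298 with 1 library left out. Negative ones (462) numbered 234 at a pseudocount of 0.1, 186 with a filter at 10 and 266 to 553 with 1 library left out. Leaving out every replicate 3, an alternative chosen after seeing the data, gave 249 and 481 differences from tumor and 749 and 1042 from anemia. Beyond the settings and filters themselves, the cause was not tested.

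With the replicate number as a block, 5852 genes were higher and 1261 lower, 75 and 66 differed from tumor and 377 and 554 from anemia. Of the named genes it changed the call of Arg1 and no other.

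Over 259 named genes and 18 alternatives, 4389 of the values kept their direction and call, 82 lost and 38 gained a call, and 19 changed sign. The changes of sign were in genes that had not passed. Ear2 was -0.71 without CD45+ replicate 3 and -0.66 without every replicate 3, Ccr3 -0.12 and Jchain -0.028 under quantile normalization, and Rasgrp3 -0.30 and -0.84 under median-ratio and quantile scaling. Havcr2 was -0.50, -1.01 and -0.066 and Itga2b -0.79, -0.75 and -0.16 under median-ratio scaling, quantile normalization and with haemoglobin genes left out. The value of Havcr2 under quantile normalization passed as lower (adjusted p = 0.034), and no other value that changed sign did. With 1 library left out, Ear2 lay between -0.71 and 2.79, Havcr2 between -0.13 and 0.28, Il1rl1 between -0.94 and 0.42 and Itga2b between -0.27 and 0.44.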

Other observations

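Enzymes of lipid mediators rose with the granulocyte genes. Of 10 tested genes of leukotriene and prostaglandin synthesis 9 rose in neonatal CD45+ cells, with a median of 2.43. Alox5ap, which hands arachidonic acid to 5-lipoxygenase, was 49.4, 51.7 and 37.1 in CD45+ and 3.21, 2.11 and 1.503 in CD45- libraries and rose by 3.86 ± 0.39 (limma adjusted p = 3.9e-07). Alox5 itself rose by 3.95, the hydrolase Lta4h by 3.51, the cyclooxygenase Ptgs1 by 4.33 and the phospholipase Pla2g4a by 2.50. The difference from the anemia contrast passed for 4 of the 10, all positive, against 2.8% of all genes. Cathepsins, the proteases of lysosomes and granules, rose in 10 of 13, with Ctsd, Ctsh, Ctsa and Ctsz at 2.76, 3.76, 3.13 and 2.81. Ctse, the aspartic protease of red cell precursors, was the exception at 28.2, 28.5 and 9.83 against 281, 331 and 430.4, a fall of 4.03 ± 0.61 (adjusted p = 3.0e-05).

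The BCL2 family, which sets the threshold for cell death, had 11 of 14 tested members that rose and 2 that fell. Of all genes 49.6% rose and 10.3% fell. Under median-ratio and quantile scaling 7 and 5 members rose, beside 30% and 23.8% of all genes. Mcl1, a survival protein that granulocytes and progenitors need, was 52.1, 50.1 and 104 in CD45+ and 15.2, 13.6 and 10.7 in CD45- libraries and rose by 2.23 ± 0.29 (adjusted p = 5.3e-06), Bcl2a1b rose by 2.78, and the death-promoting Bcl2l11 and Pmaip1 rose by 2.11 and 2.48. Bcl2l1, the survival protein of erythroblasts, was 17.4, 24.6 and 12.7 against 76.2, 100.5 and 119.7 and fell, and Bbc3 fell by 1.50. Among genes that write or erase DNA methylation, 7 of 11 rose and 2 fell, beside 49.6% and 10.3% of all genes. Under median-ratio scaling 5 rose and 4 fell, beside 30% and 24.5% of all genes. With quantile normalization 5 rose and 3 fell, beside 23.8% and 25.1%. Those that rose included Tet2 by 3.31, Tet1 by 1.19, Gadd45b by 3.04, and the methyltransferases Dnmt3a and Dnmt3b by 2.58 and 2.02. Uhrf1, which recruits the maintenance enzyme in dividing cells, fell by 1.38. In the integrated stress response, Eif2ak1, the haem-regulated kinase, was 28.7, 43.6 and 18.2 against 209, 242 and 171 and fell by 2.81 ± 0.35 (adjusted p = 3.8e-06). The list as a whole had 3 of 14 that rose and 3 that fell, and its median of 0.18 was -0.63 under median-ratio scaling. Antioxidant enzymes were divided, with 8 of 20 that rose and 7 that fell, and their median of 0.33 was -0.54 under median-ratio scaling. Prdx5 and Gpx3 rose by 4.15 and 2.81.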
